A study of Homo sapiens with 38 samples.

Results

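Fumed silica nanoparticles (NPs) at 3.0 μg/cm2 were left on A549 cells for 72 h, and the transcripts of 3 exposed cultures were compared with those of 3 cultures kept without NPs for the same time, which makes 6 of the 38 arrays of the series. The exposed arrays were those with the dose 3.0 μg/cm2 and a source name of 72 h, and the controls were the untreated arrays with a source name of 72 h. A549 is an established human line from a lung carcinoma, used as a model of alveolar epithelium, and both groups were unmodified A549 cells in serum-free medium, which the exposed cells received with AEROSIL, an amorphous fumed silica. For comparison, 3 cultures at 6.0 μg/cm2 for 72 h, 3 cultures at 3.0 μg/cm2 for 24 h and 3 untreated cultures at 24 h were also used. The free-text note on the exposed 72 h arrays reads 24 h, so that their time rests on the source name alone. The model is 1 tumor line grown without macrophages or other lung cells.

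Each array measured total RNA labeled with the dye Cy3. Levels are log2 processed signals relative to each array's 75th percentile signal, so that 0 marks a bright probe and probes below about −6 to −7 were no longer well above background. The 75th percentile was 838 to 1040 signal units on the 6 arrays, 0 spots were saturated, and 64.4% to 66.8% of probes were well above background on 5 arrays. Exposed replicate 1 stood apart with 73.3%, and its probe-wise difference from the other exposed replicates had an SD of 0.331 and 0.378, against 0.250 between those 2 and 0.202 to 0.239 among the controls. The controls shared a scan day with all 24 h arrays, and every 72 h exposed array was scanned on another day. No slide held both controls and 72 h exposed arrays. Exposed replicate 1 was on a different slide from exposed replicates 2 and 3, which shared one. Scan day, slide and exposure thus cannot be told apart in the comparison with the controls.

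Among the 16 alveolar markers on the array, 11 were well above background on all 6 arrays, including the surfactant genes SFTPC and SFTPD, whereas NKX2-1, PDPN and SLC34A2 were above it on none. The summed linear level of these markers was 9.86 to 10.2 times the 75th percentile signal in the controls and 10.5 to 11.1 times in the exposed cells. Of 8 general epithelial markers, 7 were measured on all arrays, with a summed level of 385 to 431 in the controls and 330 to 385 in the exposed cells. Of 8 fibroblast markers, ACTA2 and THY1 were well above background on all controls, and COL1A2, COL3A1, PDGFRB and POSTN on no array. Of 8 endothelial markers, CDH5, ESAM and VWF were so on all controls, and CLDN5, EMCN, KDR and TEK on no array. In each of these lists, 2 markers were well above background on all exposed arrays. Of 8 macrophage and leukocyte markers, 4 were measured, CD14, ITGAM, PTPRC and TYROBP, with a summed level of 2.66 to 2.76 in the controls and 1.87 to 2.04 in the exposed cells. CD14, an endotoxin co-receptor, was the member of this list that passed both thresholds (−0.59 ± 0.050, adjusted p = 0.00171), a call close to the fold threshold that was lost with normexp correction (a model-based background correction), with quantile normalization, with the raw median intensity of each spot (corrected neither for background nor for spatial trend), and without exposed replicate 2, exposed replicate 3 or control replicate 1.

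A549 cells are known to make, beside surfactant components, many plasma proteins that are chiefly products of hepatocytes, including fibrinogen. Fibrinogen is assembled from alpha, beta and gamma chains, is cleaved by thrombin to fibrin, and rises in inflammation with other acute phase proteins. In the liver, its genes and those of albumin and many carriers are driven by a network of transcription factors that includes HNF1 and HNF4A. Particles taken up by lung epithelium are also known to raise cytokines through NF-kB, the factor family that controls genes such as IL6 and CXCL1.

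After 72 h at 3.0 μg/cm2, 856 of 14281 genes tested were modulated, taking 1 probe a gene, at an adjusted p of 0.05 and a 1.5-fold change or more. Of these, 235 were higher (1.65%) and 621 lower (4.35%) in the exposed cells. The exposed and control arrays of all 856 genes did not overlap. With 3 arrays a group, passing both thresholds nearly requires this, so that it adds no support here or for the genes below. In these bulk RNA samples, fewer cells of a kind and less RNA per cell cannot be told apart. The genes that fell included the fibrinogen chains, transferrin, complement regulators, brush border genes and hypoxia targets, while a smaller set of cytokine, EGF family and stress genes rose. The fitted fall reached a log2 fold change of −1 or less for 190 genes, whereas 52 genes rose by 1 or more, and the median over all genes tested was 0.011. Without exposed replicate 1, the counts were 222 higher and 692 lower. Over probes, 462 were higher and 834 lower, which is 35.6% higher among those modulated. This share was 12.5% with the raw median intensity (145 higher, 1016 lower), and the rise of many dim probes was lost there, as stated for each gene below.

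Coagulation genes fell more often than they rose. Of 36 on the array, 27 were tested, 10 were lower, 1 was higher, and the median log2 fold change was −0.50. Where both groups had to be well above background on every array, 21 were tested and 8 were lower, with a median of −0.13. With normexp correction 6 were lower, with a median of −0.16. All 4 genes of the fibrinogen group fell, that is the 3 chains of fibrinogen and FGL1, a fibrinogen-like protein secreted by hepatocytes. FGG, the gamma chain, lay at 3.96, 4.04 and 4.02 in the control arrays and at 2.41, 2.40 and 2.36 in the exposed arrays, a log2 fold change of −1.62 ± 0.049 (SE, n = 3 per group, adjusted p = 0.000274 in limma). The same fold change, SE and adjusted p stand in parentheses for the genes that follow. FGB, the beta chain, lay at 2.17, 2.19 and 2.20 in the controls and at 0.70, 0.64 and 0.72 after exposure (−1.50 ± 0.048, adjusted p = 0.00031). FGA, the alpha chain, lay at 1.92, 1.71 and 1.71 in the controls and at 0.14, 0.17 and 0.13 after exposure (−1.63 ± 0.072, adjusted p = 0.000365). The exposed arrays of each chain lay close together, and all of them lay below every control array. FGL1 was lower in the exposed arrays, at 2.55, 2.52 and 2.53 against 3.51, 3.56 and 3.50 (−0.99 ± 0.046, adjusted p = 0.000365).

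Among the other coagulation genes, 2 of 10 clotting factors tested fell. F7, the factor that starts the extrinsic pathway, was at −2.99, −3.03 and −3.08 in the controls and at −4.76, −4.88 and −5.07 in the exposed cells (−1.87 ± 0.089, adjusted p = 0.000368). F13B, the carrier subunit of the factor that cross-links fibrin, was at −4.94, −4.95 and −4.94 in the controls and well above background on 1 exposed array. It was lower after exposure (adjusted p = 0.00491), a call lost with normexp correction. No size is given for a gene above background on fewer than 2 arrays of a group, unless none held it and a bound can be set. F2, prothrombin, passed the test at a fold below the threshold (−0.55 ± 0.050, adjusted p = 0.00186), and F10 did not pass it, with levels that overlapped between the groups (−0.080 ± 0.57, adjusted p = 0.927). Of the natural anticoagulants, PROC, the protein C precursor, went from −0.93, −1.01 and −0.88 to −1.62, −1.79 and −1.68 (−0.76 ± 0.066, adjusted p = 0.00172). SERPINA5, the protein C inhibitor, was at −5.10, −5.52 and −6.20 in the controls and not well above background on any exposed array. That makes it at least 1.95-fold lower (adjusted p = 0.00623), a call lost with normexp correction. PROS1, the cofactor of protein C, also fell (−0.60), and TFPI2, a Kunitz-type protease inhibitor, rose (0.81). Among the fibrinolysis genes, and not an anticoagulant, SERPINF2, the plasmin inhibitor, fell (−0.59). These 3 were picked out after their values were seen. PLAU, PLAT and THBD, which encode both plasminogen activators and thrombomodulin, passed the test but not the fold threshold, with 0.46 ± 0.051, 0.28 ± 0.069 and 0.32 ± 0.069.

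The windows before the start of FGA, ALB and F13B are shown because these 3 genes, all lower in the exposed cells, hold the letters of the HNF1 motif close to the start. They run from 250 bases before to 50 bases after the start in RefSeq, build GRCh38.p14, at chr4:154590693-154590992 on the minus strand, chr4:73404037-73404336 on the plus strand and chr1:197067211-197067510 on the minus strand. Capitals mark GTTAATNAT or its reverse complement.
FGA: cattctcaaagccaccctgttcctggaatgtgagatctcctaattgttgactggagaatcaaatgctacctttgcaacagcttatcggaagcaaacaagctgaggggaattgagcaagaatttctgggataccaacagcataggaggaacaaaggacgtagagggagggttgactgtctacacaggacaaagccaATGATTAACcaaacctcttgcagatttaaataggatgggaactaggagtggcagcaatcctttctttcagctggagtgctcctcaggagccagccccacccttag
ALB: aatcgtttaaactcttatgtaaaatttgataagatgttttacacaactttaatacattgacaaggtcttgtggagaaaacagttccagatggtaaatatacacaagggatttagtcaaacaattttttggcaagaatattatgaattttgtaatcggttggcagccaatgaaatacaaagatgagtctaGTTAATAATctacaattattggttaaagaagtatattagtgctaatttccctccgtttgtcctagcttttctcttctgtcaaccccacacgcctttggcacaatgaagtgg
F13B: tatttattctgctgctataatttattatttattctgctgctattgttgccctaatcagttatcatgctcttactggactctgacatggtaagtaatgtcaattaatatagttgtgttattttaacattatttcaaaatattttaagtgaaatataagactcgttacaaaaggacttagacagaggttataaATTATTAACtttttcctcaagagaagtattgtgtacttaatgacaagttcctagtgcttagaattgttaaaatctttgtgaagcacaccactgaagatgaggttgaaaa
The match began 55, 61 and 59 bases before the start, in this order. Searched on both strands, these letters were in 278 of 35116 windows of all genes (0.792%), in 91 of 11332 windows of genes tested (0.803%), in 14 of 449 windows of genes that fell (3.12%) and in 1 of 170 windows of genes that rose (0.588%). A match of letters is a description of the window.

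Many plasma proteins fell. Of 29 tested among 43 on the array, 16 were lower and 0 higher, with a median of −0.78, and 7 of 8 carriers fell. With normexp correction 11 were lower, with a median of −0.40. TF, transferrin, the iron carrier of plasma, was at −2.18, −2.39 and −2.31 in the controls and at −4.74, −4.68 and −4.63 in the exposed cells (−2.39 ± 0.071, adjusted p = 0.000274). CP, ceruloplasmin, a copper-binding ferroxidase, was at −1.15, −1.01 and −0.67 and at −2.36, −2.54 and −2.55 in the exposed cells (−1.54 ± 0.13, adjusted p = 0.00174). HPX, hemopexin, which binds heme, was at −4.28, −4.31 and −4.42 in the controls and well above background on 1 exposed array. It was lower (adjusted p = 0.00632), a call lost with normexp correction. The exposed and control arrays of TF and CP were apart. ALB, albumin, was measured on all controls at −4.74, −4.93 and −4.85 and was not well above background on any exposed array, at least 3.09-fold lower (adjusted p = 0.0178). The albumin call was lost with normexp correction, without the filter on dim probes, with the methods' t-test and without control replicate 1, 2 or 3. The other members that fell included 4 protease inhibitors, 3 lipid carriers and 2 acute phase proteins.

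**Figure D1:**
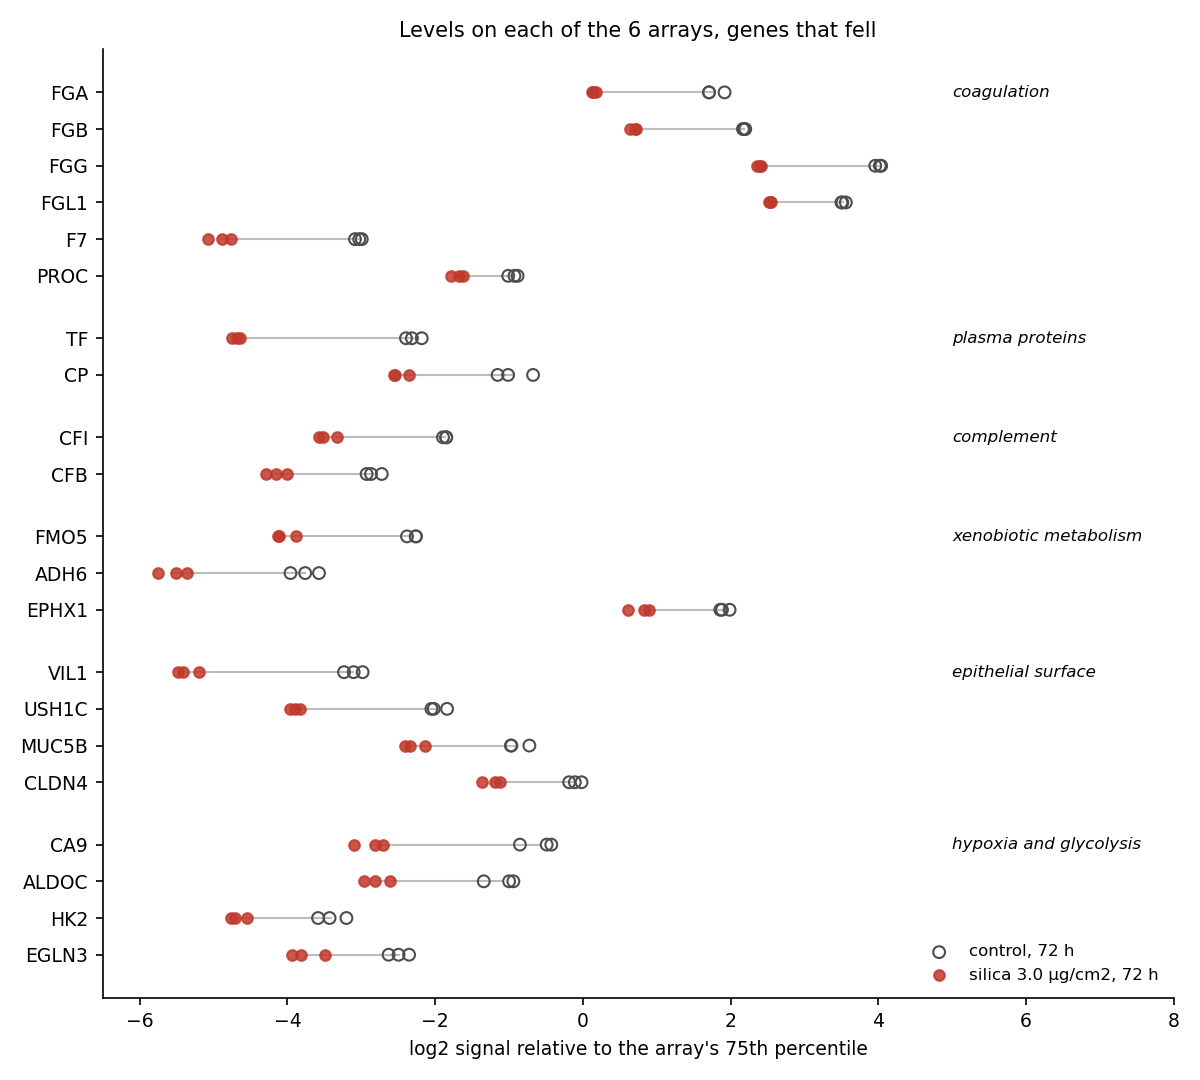
Level of 21 genes of 6 groups on each 72 h array (log2 processed signal minus the 75th percentile of the array, horizontal axis), with 1 point per array for 3 control and 3 exposed cultures. The exposed points of every gene drawn lie below its control points, for example at 2.36 to 2.41 against 3.96 to 4.04 for FGG.

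Complement genes showed 7 lower and 0 higher of 17 tested, with a median of −0.50. CFI, the protease that inactivates C3b, was at −1.89, −1.85 and −1.85 in the controls and at −3.57, −3.52 and −3.33 in the exposed cells (−1.61 ± 0.074, adjusted p = 0.000365). CFB, the protease of the alternative pathway, was at −2.72, −2.87 and −2.93 and fell to −4.01, −4.28 and −4.15 (−1.31 ± 0.092, adjusted p = 0.00103). The groups did not overlap in either gene, and an activating and an inactivating protease were both lower. C3, CFD and C4BPA, named after their values were seen, fell by 0.77, 0.60 and 0.93.

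Liver-enriched transcription factors were lower for 5 of 18 tested and higher for 0, with a median of −0.29. NR1H4, the bile acid receptor FXR, was at −2.93, −2.90 and −2.98 in the controls and at −3.86, −4.00 and −3.85 after exposure (−0.97 ± 0.061, adjusted p = 0.000756). FOXA3, a forkhead factor of liver and gut, went from −0.96, −1.10 and −1.21 to −1.70, −1.74 and −1.80 (−0.66 ± 0.076, adjusted p = 0.0037). PPARA, a nuclear receptor for fatty acids, went from −3.60, −3.36 and −3.05 to −4.43, −4.13 and −4.09 (−0.88 ± 0.16, adjusted p = 0.0139), a call lost with normexp correction and without control replicate 2. HNF4A was dim, at −5.41, −5.40 and −5.37 in the controls and well above background on 1 exposed array. It was lower (adjusted p = 0.00729), a call lost with normexp correction. FOXA1, named after its value was seen, fell by 0.60. With normexp correction, 2 of the list were lower, with a median of −0.26.

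Some enzymes of xenobiotic metabolism were lower as well: 10 of 35 tested were lower and 0 higher, with a median of −0.36. These were 8 of 18 phase 1 enzymes and 2 of 15 phase 2 enzymes. FMO5, a flavin monooxygenase, was at −2.38, −2.26 and −2.26 in the controls and at −4.12, −4.13 and −3.88 in the exposed cells (−1.74 ± 0.085, adjusted p = 0.000368). ADH6, an alcohol dehydrogenase, was at −3.57, −3.76 and −3.96 and at −5.36, −5.51 and −5.75 after exposure (−1.78 ± 0.14, adjusted p = 0.00127). ADH1C, another alcohol dehydrogenase, was at −2.50, −2.71 and −2.72 and at −3.66, −4.51 and −4.35 after exposure (−1.53 ± 0.23, adjusted p = 0.00763). The groups were apart in all 3, with the widest spread among the exposed arrays in ADH1C. CYP4F2, a fatty acid hydroxylase, fell by 1.05, a call lost with normexp correction, and 4 more cytochrome P450 genes were among those lower. GSTA5, a glutathione transferase, was at −4.06, −4.12 and −3.97 in the controls and above background on 1 exposed array, and it was lower (adjusted p = 0.000368), though its sequence is close to that of other GSTA genes.

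Surface genes of polarized epithelium were lower for 11 of 42 tested and higher for 1, with a median of −0.27. The brush border genes were lower for 3 of 5 tested. VIL1, villin, the actin bundler of microvilli, was at −2.98, −3.10 and −3.23 in the controls and at −5.19, −5.42 and −5.48 after exposure (−2.26 ± 0.10, adjusted p = 0.000365). USH1C, harmonin, which anchors microvillar links, was at −1.84, −2.05 and −2.02 and at −3.90, −3.83 and −3.96 after exposure (−1.93 ± 0.076, adjusted p = 0.000365). MYO1A, a myosin of the brush border, was at −1.88, −1.92 and −1.99 and at −3.25, −3.79 and −3.68 after exposure (−1.64 ± 0.14, adjusted p = 0.00179). Every exposed array lay below every control in all 3. Of 4 mucins tested, 3 were lower: MUC5B, the main gel-forming mucin of distal airways, went from −0.72, −0.97 and −0.97 to −2.34, −2.14 and −2.41 (−1.41 ± 0.10, adjusted p = 0.00118), and MUC13 and MUC1, named after their values were seen, fell by 1.32 and 1.14. CLDN4, a tight junction claudin, went from −0.017, −0.19 and −0.11 to −1.19, −1.36 and −1.12 (−1.12 ± 0.084, adjusted p = 0.00119), and 4 of 11 tight junction genes fell in all. ELF3, an epithelial ETS factor, fell too (−0.73 ± 0.077, adjusted p = 0.00293). None of 6 keratins passed the test with the fold threshold, and ZEB2, a repressor of epithelial genes, was the member that rose (0.88). With normexp correction and with the raw median intensity, 0 of the list were higher. The same held where both groups had to be well above background on every array.

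Hypoxia targets and glycolytic enzymes were lower for 9 of 34 tested and higher for 0, with a median of −0.33. The hypoxia targets made up 7 of the 9. CA9, a carbonic anhydrase induced by low oxygen, was at −0.43, −0.85 and −0.49 in the controls and at −3.09, −2.70 and −2.81 after exposure (−2.28 ± 0.15, adjusted p = 0.000837). ALDOC, an aldolase, was between −1.34 and −0.94 in the controls and at −2.97, −2.62 and −2.82 in the exposed arrays (−1.71 ± 0.14, adjusted p = 0.00145). HK2, the inducible hexokinase, was at −3.43, −3.58 and −3.20 and at −4.55, −4.77 and −4.71 after exposure (−1.27 ± 0.11, adjusted p = 0.00184). EGLN3, a prolyl hydroxylase that marks the hypoxia-inducible factors for decay, fell by 1.25 (adjusted p = 0.00311).

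Of 16 cytokines and chemokines tested, 5 were higher and 2 lower, and the median was 0.34. IL6, the main inducer of acute phase proteins, was at −5.95, −6.30 and −5.99 in the controls, above background on 2 of them, and at −4.30, −4.81 and −4.27 after exposure (1.62 ± 0.17, adjusted p = 0.00311). Every exposed array lay above every control, but the IL6 call was lost with normexp correction (0.38) and with the raw median intensity (0.24). CCL5, a chemokine for T cells, was well above background on no control and lay at −4.85, −4.88 and −5.16 in the exposed cells, at least 2.90-fold higher (adjusted p = 0.00031), a call lost in the same 2 settings. CCL20, which attracts dendritic cells, was at least 1.42-fold higher on the processed signal but turned to −0.10 with the raw median intensity. CXCL1, a neutrophil chemokine, and IL11, a cytokine of the IL-6 family, both named after their values were seen, rose by 0.71 and 0.73. TNFSF10, the death ligand TRAIL, fell from −2.88, −2.91 and −2.89 to −4.10, −4.30 and −4.31 (−1.34 ± 0.070, adjusted p = 0.000402), and TNFSF15 fell by 0.77. CXCL8, encoding interleukin-8, was above background on 2 exposed arrays and 0 controls, and TNF on none, so that neither was tested. With normexp correction, 2 of the list were higher.

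The NF-kB list had 3 genes higher and 0 lower of 27 tested, with a median of 0.085. RELB, a subunit of the noncanonical pathway, was bright and rose from 1.06, 1.11 and 1.08 to 2.19, 2.26 and 2.24 (1.15 ± 0.048, adjusted p = 0.000365). PTX3, a long pentraxin induced by NF-kB, was above background on no control and at −5.37, −5.70 and −5.54 after exposure, at least 1.95-fold higher (adjusted p = 0.00119), and this call was lost with normexp correction and with the raw median intensity. ICAM1, a leukocyte adhesion molecule, was 0.76 on the processed signal (adjusted p = 0.00782) and −0.19 with the raw median intensity. None of the 8 feedback inhibitors of the pathway passed both thresholds, with 3 of 8 at an unadjusted p under 0.05, and SOD2, a mitochondrial dismutase induced by NF-kB, passed the test below the fold threshold (0.49 ± 0.045, adjusted p = 0.00212).

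The windows of IL6 and CXCL1 are shown because both held the NF-kB letters GGANTTTCC, or their reverse complement, in capitals. They lie at chr7:22726950-22727249 and chr4:73869143-73869442, both on the plus strand, in the same build.
IL6: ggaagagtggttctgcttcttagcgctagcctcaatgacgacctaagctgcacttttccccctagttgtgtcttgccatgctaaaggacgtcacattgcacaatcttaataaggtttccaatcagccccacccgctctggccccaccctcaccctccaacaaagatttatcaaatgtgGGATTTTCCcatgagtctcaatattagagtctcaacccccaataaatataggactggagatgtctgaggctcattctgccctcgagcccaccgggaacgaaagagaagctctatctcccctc
CXCL1: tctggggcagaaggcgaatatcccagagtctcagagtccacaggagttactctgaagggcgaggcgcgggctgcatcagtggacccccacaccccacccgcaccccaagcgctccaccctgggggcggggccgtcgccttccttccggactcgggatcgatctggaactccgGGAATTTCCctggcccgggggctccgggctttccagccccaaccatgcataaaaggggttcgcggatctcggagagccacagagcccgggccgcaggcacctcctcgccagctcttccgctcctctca
The match began 72 and 78 bases before the start. On both strands, these letters were in 577 of 35116 windows of all genes (1.64%), 254 of 11332 windows of genes tested (2.24%), 8 of 170 windows of genes that rose (4.71%) and 7 of 449 windows of genes that fell (1.56%).

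Of 26 interferon-stimulated genes tested, 4 were higher and 0 lower, with a median of 0.087. ISG15, a ubiquitin-like modifier, was at −0.55, −0.56 and −0.49 in the controls and at 0.47, 0.45 and 0.23 after exposure (0.92 ± 0.080, adjusted p = 0.00172), and it kept its call in every setting run. MX1, an antiviral GTPase, was at −4.00, −3.96 and −4.00 and at −2.53, −2.98 and −3.25 after exposure (1.07 ± 0.18, adjusted p = 0.0108). OASL, a relative of the oligoadenylate synthetases, was at −4.43, −4.56 and −4.70 and at −3.18, −3.04 and −3.80 after exposure (1.23 ± 0.20, adjusted p = 0.0106). Exposed replicate 1 was the highest for MX1 and ISG15. MX1 and OASL lost their calls with normexp correction and with the raw median intensity. IFI44 was at least 1.60-fold higher on the processed signal and −0.24 with the raw median intensity, and its call was also lost without the filter on dim probes, with the methods' t-test, with the replicate block and without control replicate 1 or 2.

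In the EGF receptor family, 2 ligands were higher and 1 receptor lower past both thresholds. The tested ligands ranged from −0.58 to 1.03, so that they did not all rise. EREG, epiregulin, was at −0.93, −0.73 and −0.65 in the controls and at 0.15, 0.25 and 0.39 after exposure (1.03 ± 0.098, adjusted p = 0.00224). AREG, amphiregulin, was at 2.01, 2.08 and 2.18 and at 2.90, 2.78 and 2.79 after exposure (0.74 ± 0.066, adjusted p = 0.00187). ERBB3, the receptor that pairs with ERBB2, fell from −1.05, −1.15 and −1.19 to −2.77, −2.72 and −2.72 (−1.61 ± 0.056, adjusted p = 0.000365). The 3 calls were kept in every setting run, and 2 of 7 ligands and 1 of 3 receptors tested were modulated. LY6K, a cell surface protein of the LY6 family, rose from −3.36, −3.45 and −3.23 to −1.69, −1.66 and −1.71 (1.66 ± 0.068, adjusted p = 0.000365).

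Among stress responses, the genes under ATF4 and CHOP, which act when amino acids or protein folding fail, had 5 of 24 higher and 0 lower, with a median of 0.22. CHAC1, a glutathione-degrading enzyme, was at 0.74, 0.78 and 0.84 in the controls and at 1.40, 1.56 and 1.49 after exposure (0.69 ± 0.061, adjusted p = 0.0018). TRIB3, a pseudokinase that restrains ATF4, was at 4.75, 4.82 and 4.75 and at 5.45, 5.44 and 5.38 after exposure (0.65 ± 0.050, adjusted p = 0.00128), a call lost under quantile normalization. STC2, a secreted glycoprotein (0.86 ± 0.098, adjusted p = 0.00358), and DDIT3, which encodes CHOP itself (0.61 ± 0.070, adjusted p = 0.00367), lost their calls with normexp correction and with the raw median intensity, and DDIT3 also without exposed replicate 2. ALDH1L2, a mitochondrial folate enzyme named after its value was seen, rose by 0.61. Its call, too, was lost with normexp correction and with the raw median intensity, where 2 of 24 genes were higher. XBP1, a factor of the unfolded protein response, fell in the same arrays from 4.99, 5.06 and 4.97 to 4.07, 4.03 and 4.04 (−0.96 ± 0.048, adjusted p = 0.000369), and it was the member past both thresholds among 22 genes of that response, none of the 14 chaperones and folding enzymes among them. Of 30 cell death genes tested, 6.67% were modulated, near the share of all genes tested (1.65% higher and 4.35% lower). In the BCL2 family, with 13 tested, 1 was higher and 1 lower. HRK, a BH3-only activator of death, rose from −3.41, −3.48 and −3.21 to −2.08, −2.11 and −2.17 (1.25 ± 0.082, adjusted p = 0.000837). BMF, another, fell from −3.39, −3.55 and −3.63 to −4.66, −4.26 and −4.36 (−0.90 ± 0.12, adjusted p = 0.0061). The BMF call was lost with normexp correction. None of the other 28 cell death genes tested was modulated.

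**Figure D2:**
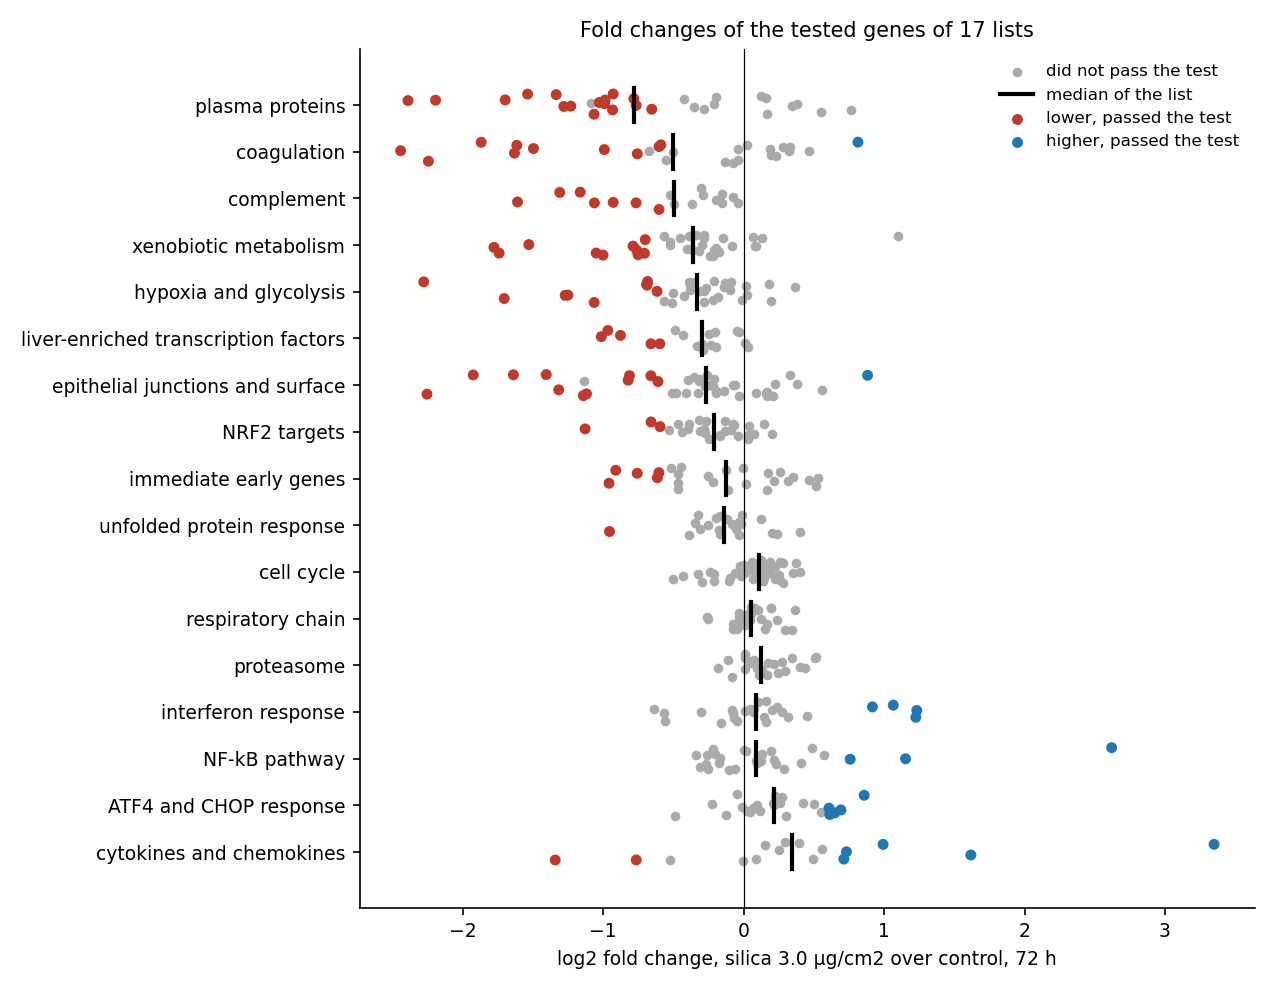
Log2 fold change of each gene tested in 17 of the gene lists (exposed minus control at 72 h, horizontal axis), with 1 point per gene, red or blue where it was lower or higher past both thresholds and grey otherwise, and a line at the median of the list. The lists of plasma proteins and coagulation lie mostly left of 0, with medians of −0.78 and −0.50, and the cell cycle and proteasome lists lie close to 0 with no gene called. The coagulation median was −0.13 where both groups had to be well above background on every array. The points of ICAM1, CCL20 and IFI44 lie right of 0 here and fell to the left of it with the raw median intensity.

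No gene of the oxidant defense lists rose past both thresholds. Of 28 NRF2 targets, 0 were higher and 3 lower, and the median was −0.21. EPHX1, microsomal epoxide hydrolase, went from 1.99, 1.86 and 1.88 to 0.62, 0.90 and 0.83 (−1.13 ± 0.087, adjusted p = 0.00128), and ABCC3, an efflux transporter, fell by 0.66. HMOX1, heme oxygenase, was bright and overlapped between groups, at 5.30, 5.33 and 5.34 in the controls and 5.29, 5.39 and 5.41 after exposure (0.036 ± 0.054, adjusted p = 0.64), and NQO1, a quinone reductase, did not pass the test (−0.27 ± 0.081, adjusted p = 0.0549). GPX2, the epithelial glutathione peroxidase, fell from 5.63, 5.57 and 5.58 to 4.62, 4.70 and 4.59 (−0.96 ± 0.054, adjusted p = 0.00053), the 1 of 16 oxidant-removing enzymes modulated. None of 7 metallothioneins tested passed both thresholds, though their median was 0.31 and 6 of 7 had an unadjusted p under 0.05 in limma. SLC40A1, ferroportin, the iron exporter, fell from −0.42, −0.28 and −0.36 to −1.42, −1.37 and −1.18 (−0.97 ± 0.082, adjusted p = 0.00163). Among 20 heat shock proteins, HSPA6, the strictly inducible HSP70, was 1.09 on the processed signal (adjusted p = 0.00979) and −0.025 with the raw median intensity. Of 20 p53 targets, TP53INP1, which promotes autophagy and death, fell (−0.81 ± 0.11, adjusted p = 0.00655).

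Immediate early genes, which serum and growth signals induce within minutes, were lower for 5 of 25 tested and higher for 0. FOS, a subunit of AP-1, was at 2.84, 2.82 and 2.88 in the controls and at 1.68, 1.91 and 2.21 after exposure (−0.91 ± 0.13, adjusted p = 0.00724). EGR2, a zinc finger factor, fell from −3.48, −3.20 and −3.25 to −4.05, −4.28 and −3.87 (−0.76 ± 0.13, adjusted p = 0.011), a call lost with normexp correction and without control replicate 2. The others were FOSB, ZFP36, an mRNA-destabilizing protein, and JUNB. FOSB fell by 0.96 with a call lost without the filter on dim probes, with the methods' t-test and without control replicate 1, control replicate 2 or exposed replicate 2. ZFP36 fell by 0.62 with a call lost with normexp correction, with the raw median intensity and without exposed replicate 1 or control replicate 3. JUNB, named after its value was seen, fell by 0.60.

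In arachidonic acid metabolism the enzymes moved apart. PTGES, the inducible prostaglandin E synthase, rose from −1.55, −1.77 and −1.65 to −0.85, −0.82 and −0.90 (0.80 ± 0.070, adjusted p = 0.00174). PTGDS, a prostaglandin D synthase, fell from −1.27, −1.33 and −1.16 to −2.28, −2.41 and −2.51 (−1.14 ± 0.081, adjusted p = 0.00103). ALOX5, the first enzyme of leukotriene synthesis, fell from −4.34, −4.29 and −4.45 to −5.57, −5.53 and −5.63 (−1.21 ± 0.062, adjusted p = 0.000383). The ALOX5 call was lost with normexp correction. Of 32 genes of the BMP and TGF-beta pathway, BMP6, a BMP ligand, fell (−0.63 ± 0.055, adjusted p = 0.00174). The BMP6 call was lost with normexp correction, where 0 of the 32 were higher and 0 lower. NOG, a BMP inhibitor (0.60), and INHBE, an activin subunit (at least 2.22-fold higher), rose on the processed signal and turned to −0.15 and −0.000346 with the raw median intensity. Both calls were also lost with normexp correction, without the filter on dim probes and with the methods' t-test, that of NOG with quantile normalization, with the replicate block and without exposed replicate 3 or control replicate 1, and that of INHBE without exposed replicate 2, control replicate 2 or control replicate 3.

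Matrix genes had 5 lower and 2 higher of 37 tested. COL1A1, a fibrillar collagen chain, was at −2.57, −2.62 and −2.71 in the controls and at −3.89, −3.83 and −3.44 after exposure (−1.08 ± 0.13, adjusted p = 0.00405). FN1, fibronectin, was at −3.67, −3.85 and −3.77 and at −4.45, −4.73 and −5.03 after exposure (−0.97 ± 0.15, adjusted p = 0.00861). The FN1 call was lost with normexp correction. COL4A3, a basement membrane collagen, was above background on 1 exposed array and lower (adjusted p = 0.0234), a call lost with normexp correction, without the filter on dim probes, with the methods' t-test, with the replicate block (adjusted p = 0.0809) and without exposed replicate 2, control replicate 2 or control replicate 3. LUM and AGRN, named after their values were seen, fell by 0.91 and 0.62. MMP1, interstitial collagenase, was 1.17 on the processed signal and −0.030 with the raw median intensity. None of 11 integrins was modulated.

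The genes of particle uptake and of lysosomes were called at shares of 7.41% and 5.13%, near those of all genes tested (1.65% higher and 4.35% lower). Of 27 uptake genes, AP2A1, a subunit of the clathrin adaptor AP2 (−0.70 ± 0.13, adjusted p = 0.0141), and DNM2, the dynamin that cuts coated vesicles from the membrane (−0.63 ± 0.095, adjusted p = 0.00815), were lower, and 0 were higher. AP2A1 lost its call without exposed replicate 1 or control replicate 2, and DNM2 without control replicate 1. Of 39 lysosome and autophagy genes, CTSL, a lysosomal cathepsin, rose from 4.09, 4.08 and 4.15 to 4.72, 4.72 and 4.71 (0.61 ± 0.046, adjusted p = 0.00122), a call lost under quantile normalization, and GABARAPL1, an autophagosome protein, fell from 1.28, 1.35 and 1.25 to 0.68, 0.59 and 0.59 (−0.67 ± 0.055, adjusted p = 0.00152). Without the fold threshold, 1 uptake gene was higher and 8 lower, and 5 lysosome and autophagy genes were higher and 6 lower. Of 40 lipid synthesis genes, 1 was lower and 0 higher, with a median of −0.15. With the fold threshold, 0 of 50 cell cycle genes (median 0.11), 0 of 31 respiratory chain genes (0.048), 0 of 24 proteasome subunits (0.12) and 0 of 11 alveolar markers (0.017) were modulated. At an unadjusted p under 0.05 in limma, 22, 10, 13 and 4 of them passed without the fold threshold, and the methods' t-test with the adjustment and the fold threshold called 0 in each list.

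Of the 10 genes with the largest fitted rise, C11orf96 went from −5.13, −4.85 and −5.66 to −2.71, −2.64 and −2.72 (2.53 ± 0.20, adjusted p = 0.00134). SNORA74A, a small nucleolar RNA, went from −5.13, −5.32 and −5.20 to −3.39, −3.14 and −3.56 (1.86 ± 0.12, adjusted p = 0.000765). MARCHF4, a membrane ubiquitin ligase, was above background on 1 control and lay at −4.29, −4.24 and −4.34 after exposure, where it was higher (adjusted p = 0.00413), a call lost with normexp correction and with the raw median intensity. C11orf96, SNORA74A and LY6K kept their calls under both. FAM47C was above background on no control and at least 1.63-fold higher, with a call lost under both. CPA4, a carboxypeptidase (at least 1.48-fold), and LOC100128593 (at least 1.72-fold) were higher on the processed signal and turned to −0.21 and −0.060 with the raw median intensity. Among the 10 genes with the largest fitted fall, a rank that rests in part on signals not above background, HBB, the beta chain of hemoglobin, was held by no list. It was at −4.18, −4.18 and −4.21 in the controls and above background on 1 exposed array, and it was lower (adjusted p = 0.000756). DMRTC1 was at least 4.39-fold, TMEM45B at least 3.38-fold and SLC17A4, an organic anion transporter, at least 1.78-fold lower, each above background on no exposed array. The TMEM45B call was lost with normexp correction, without the filter on dim probes, with the methods' t-test, with the replicate block (adjusted p = 0.0551) and without control replicate 1, 2 or 3, and the SLC17A4 call with normexp correction.

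The scan day of the 6.0 μg/cm2 arrays of 72 h was that of the 3.0 μg/cm2 arrays. Their comparison with the same 3 arrays at 3.0 μg/cm2 asks whether the levels moved on with the dose. Replicate 3 at 6.0 μg/cm2 shared a slide with 3.0 μg/cm2 arrays, and the others did not. Replicate 2 at 6.0 μg/cm2 had 61.5% of probes well above background, against 68.8% and 65.4%. Of 14025 genes tested, 111 were higher (0.791%) and 638 lower (4.55%) at 6.0 μg/cm2. Over probes, 236 were higher and 813 lower, against 384 and 653 with quantile normalization and 78 and 306 with normexp correction. Of the plasma proteins, 10 of 25 tested were lower still and 0 higher (median −0.47, against −0.019 over all genes), and of the complement genes 8 of 17 and 0. FGB lay at −0.62, −0.85 and −0.80 at 6.0 μg/cm2 (−1.44 ± 0.077, adjusted p = 0.00169), and FGG at 0.92, 0.62 and 0.84 (−1.60 ± 0.088, adjusted p = 0.00169). FGA lay at −0.97, −0.92 and −0.73 (−1.02 ± 0.077, adjusted p = 0.00219), and FMO5 differed by −1.54 ± 0.15 (adjusted p = 0.00332) and was above background on 2 of the 6.0 μg/cm2 arrays. The 6.0 μg/cm2 arrays lay below all 3.0 μg/cm2 arrays in these genes. TF was well above background on 1 array at 6.0 μg/cm2 and ADH6, VIL1 and ALOX5 on none, so that no size is given for them. Of the coagulation list 8 of 21 tested were lower and 2 higher, and of the xenobiotic enzymes 7 of 35 and 0.

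Several genes modulated at 3.0 μg/cm2 did not pass the test between the doses, and others moved on. HK2 lay at −4.48, −4.67 and −4.66 at 6.0 μg/cm2 (0.074 ± 0.086, adjusted p = 0.612), DNM2 differed by −0.064 ± 0.067 and EPHX1 by −0.27 ± 0.14, and neither passed the test (adjusted p = 0.571 and 0.225). CA9 fell on, to −4.76, −4.63 and −4.31 (−1.70 ± 0.15, adjusted p = 0.00289), and 3 of 34 genes of the hypoxia and glycolysis list were lower at the higher dose. Of the genes raised, LY6K went on to 0.24, 0.29 and 0.25 (1.95 ± 0.051, adjusted p = 0.000382), EREG to 1.08, 1.16 and 1.13 (0.86 ± 0.077, adjusted p = 0.00289) and RELB to 2.78, 2.74 and 2.92 (0.58 ± 0.066, adjusted p = 0.00479). TRIB3, CHAC1, CTSL and ISG15 differed by 0.061 ± 0.066, −0.070 ± 0.064, 0.0016 ± 0.049 and −0.099 ± 0.097, with adjusted p of 0.583, 0.503, 0.989 and 0.537.

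**Figure D3:**
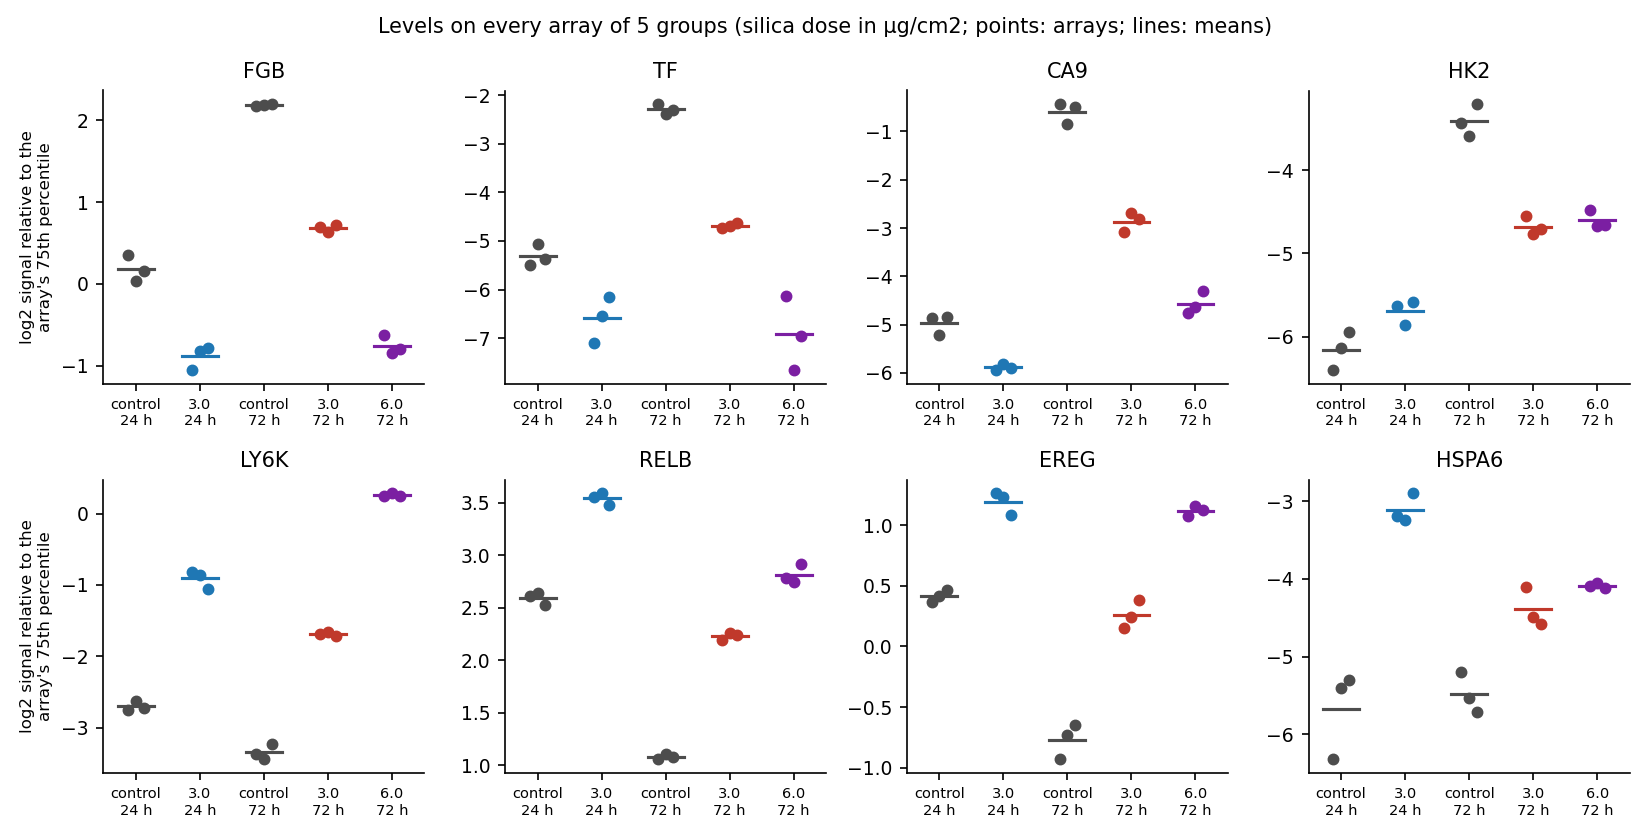
Level of 8 genes on each array (log2 processed signal minus the 75th percentile of the array, vertical axis) in 5 groups of 3 cultures, the untreated and 3.0 μg/cm2 cells at 24 h and the untreated, 3.0 and 6.0 μg/cm2 cells at 72 h, with a bar at each mean. FGB steps down with the dose at 72 h, TF was above background on 1 array at 6.0 μg/cm2, HK2 falls at 3.0 μg/cm2 and stays near that level at 6.0 μg/cm2, and LY6K steps up, while the rise of HSPA6 at 72 h turned to −0.025 with the raw median intensity.

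Exposure to the same dose for 24 h, on cells of another time with their own controls, modulated 210 of 14022 genes upward (1.5%) and 224 downward (1.6%). The difference between the 2 responses was tested as an interaction, that is the 72 h fold change minus the 24 h fold change, and 3348 of 14281 genes passed it (23.4%) with no fold threshold. In this term, too, scan day and slide cannot be told apart from the 72 h exposure. FGA changed by −0.60 at 24 h and by −1.63 at 72 h (interaction −1.04 ± 0.095, adjusted p = 0.000381). For FGB the changes were −1.07 and −1.50 (interaction −0.43 ± 0.12, adjusted p = 0.0358), and for FGG −1.09 and −1.62 (interaction −0.53 ± 0.096, adjusted p = 0.0061). The fibrinogen genes were thus lower at both times and further below their controls at 72 h. In the controls themselves the level rose with time, from 0.18 to 2.18 for FGB, from 1.46 to 4.01 for FGG and from −0.15 to 1.78 for FGA as means of 3 arrays. The exposed cells of 72 h were at 0.69, 2.39 and 0.15, so that their means lay above those of the 24 h controls in all 3 chains. These contrasts share the 72 h controls.

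Complement factor I could not be compared in size between the times, since CFI was well above background on no exposed array at 24 h. PROC changed by −1.01 at 24 h and −0.76 at 72 h, and VIL1 by −2.12 and −2.26. For both genes the interactions of 0.26 ± 0.094 and −0.13 ± 0.26 did not pass the test (adjusted p = 0.0797 and 0.75). CP and CFB fell further at 72 h, with log2 fold changes of −0.61 at 24 h and −1.54 at 72 h for CP (interaction −0.93 ± 0.16, adjusted p = 0.00551) and 0.090 and −1.31 for CFB (interaction −1.40 ± 0.19, adjusted p = 0.00192). TF was above background on 1 exposed array at 24 h, which leaves its interaction of −1.11 ± 0.28 (adjusted p = 0.0233) resting on dim probes. Genes of surface and lipid mediators that had moved little at 24 h were lower at 72 h: MUC5B changed by −0.12 and −1.41 (interaction −1.29 ± 0.16, adjusted p = 0.0016), and PTGDS by −0.11 and −1.14 (interaction −1.03 ± 0.098, adjusted p = 0.000459).

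Most genes of hypoxia and glycolysis responded differently at the 2 times. Of 34 tested, 20 passed the interaction test, 19 of them with a lower response at 72 h, and the median response was 0.076 at 24 h and −0.33 at 72 h. HK2, above background on 2 of 3 controls at 24 h, changed by 0.47 there, which did not pass the test (adjusted p = 0.0649), and by −1.27 at 72 h (interaction −1.75 ± 0.19, adjusted p = 0.000714). ALDOC changed by 0.45 and −1.71 (interaction −2.16 ± 0.16, adjusted p = 0.000181), and CA9 by −0.92 and −2.28 (interaction −1.36 ± 0.20, adjusted p = 0.00259). In the untreated cells CA9 rose from a mean of −4.97 at 24 h to −0.59 at 72 h and HK2 from −6.16 to −3.40, while the exposed cells reached −2.87 and −4.68. Genes of the cell cycle went the other way, with 27 of 50 higher and 1 lower in the interaction and medians of −0.18 at 24 h and 0.11 at 72 h, though 0 of 50 passed the fold threshold at either time. In the lipid synthesis list 19 of 40 had a lower response at 72 h and 0 a higher one, with medians of 0.16 and −0.15, and in the lysosome list 16 of 39 a lower and 2 a higher one.

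Of the genes that rose, several rose more at 24 h. CHAC1 changed by 1.34 at 24 h and 0.69 at 72 h (interaction −0.65 ± 0.12, adjusted p = 0.00735), and SOD2 by 1.14 and 0.49 (interaction −0.65 ± 0.056, adjusted p = 0.000278). In the ATF4 and CHOP list, 7 of 24 were higher at 24 h and 5 of 24 at 72 h, and 10 had a lower response at 72 h. In the NF-kB list, 7 of 27 were higher at 24 h and 3 at 72 h, with 8 lower and 2 higher in the interaction. LY6K, RELB and EREG rose at both times, by 1.79, 0.95 and 0.78 at 24 h and by 1.66, 1.15 and 1.03 at 72 h, and their interactions did not pass the test (adjusted p = 0.397, 0.0615 and 0.166). AREG changed by 0.32 at 24 h and 0.74 at 72 h (interaction 0.42 ± 0.093, adjusted p = 0.0133). C11orf96 was above background on 1 control array at 24 h, which leaves its interaction of −2.44 ± 0.31 (adjusted p = 0.00164) resting on dim signals.

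**Figure D4:**
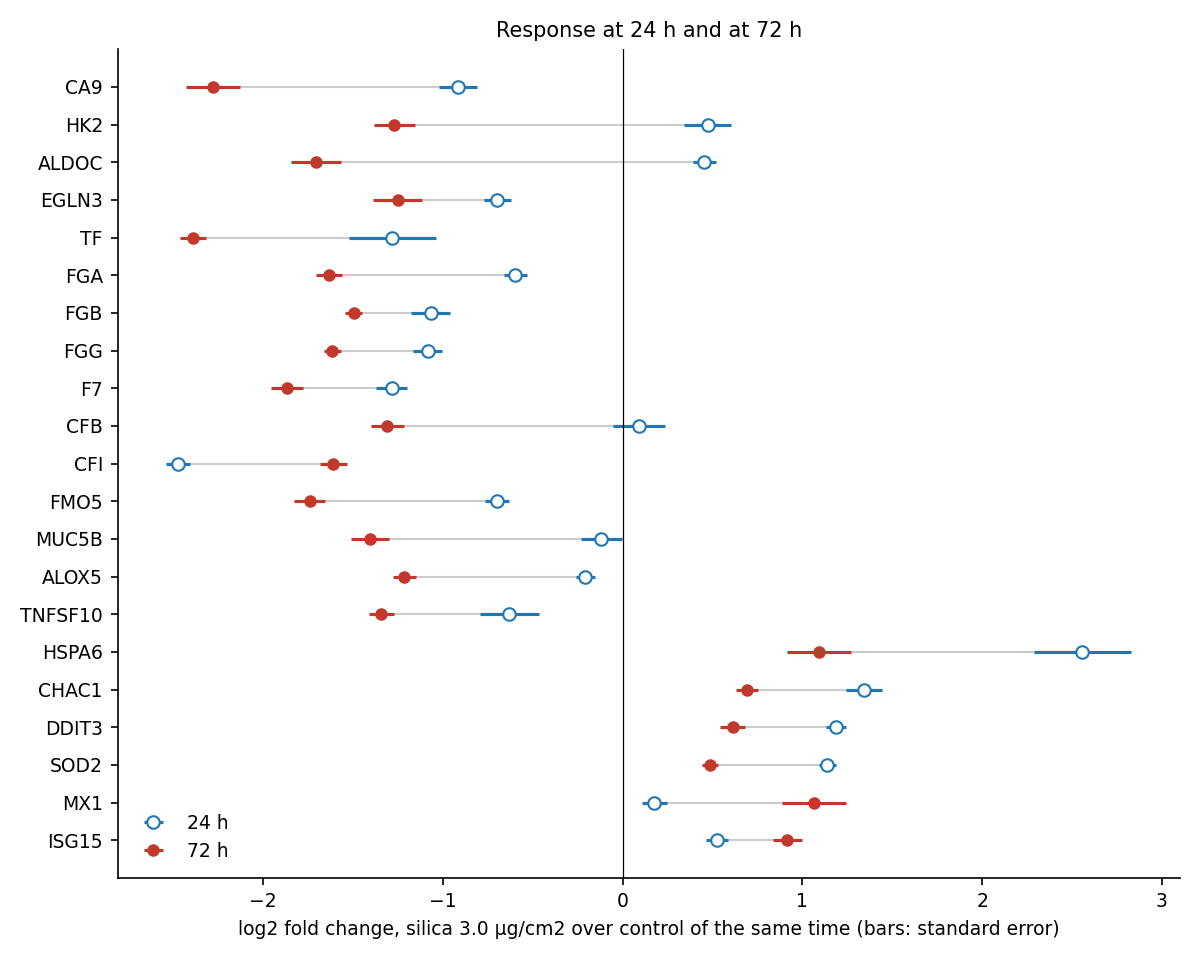
Log2 fold change of 21 genes at 3.0 μg/cm2 over the untreated cells of the same time (horizontal axis), with an open point for 24 h, a filled point for 72 h, bars of 1 SE and a line joining the 2 times of each gene. The 72 h points of FGA, HK2 and ALDOC lie left of their 24 h points and those of CHAC1 and SOD2 lie between 0 and their 24 h points, while CFI was not above background on exposed arrays at 24 h, TF was so on 1 of them, and HSPA6 at 72 h turned to −0.025 with the raw median intensity.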

How the data were processed

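Total RNA of A549 cultures was measured on 38 single-color Agilent human arrays, of which 18 were used for the fits and alternatives and 20, together with their 20 columns of the series matrix, were not used here. The authors deposited the output of Agilent Feature Extraction 11.0.1.1, per the file headers. Its processed signal is an intensity corrected for background and spatial trend and not normalized between arrays, so that dim probes depend on that correction. A series matrix that the authors deposited equalled the median intensity of each spot with a largest difference of 0, corrected neither for background nor for spatial trend and not normalized.

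The log2 of the deposited processed signal minus the 75th percentile of each array was analyzed, over 43118 non-control spots averaged to 34127 probes, with spots that the scanner marked as outliers left out (0.437%). Symbols came from RefSeq accessions (GRCh38.p14), and 25771 probes had one. A probe entered a test where all arrays of 1 or more of its groups held it well above background, and tests were made with limma 3.58.1 in R 4.3.3 (lmFit and eBayes), each pair of groups in a fit of its own, with Benjamini-Hochberg adjustment over all probes tested, at an adjusted p of 0.05 and a fold change of 1.5 as in the methods. The interaction of dose and time had no fold threshold. Values after ± are SE, with 3 arrays a group. The number of arrays limits the precision. A gene was given by its tested probe with the highest mean. For a probe above background on no array of a group, the fold was bounded by the lowest signal above background on each array ("at least"). The arrays of a group were separate cultures per the labels.

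Named genes were the 10 with the largest rise and the 10 with the largest fall, up to 4 genes per list, a fixed set of coagulation, cytokine and stress genes, and the 5 with the largest interaction. The results of some genes are not reported here. Groups, the 34 gene lists and this rule were chosen with earlier results of these data known. Besides the lists described, 2 fibroblast and 3 endothelial markers were tested and none was modulated. The scripts were tested on simulated data. Alternatives were normexp correction (on the median intensities, offset 50), quantile normalization, no or a stricter filter on dim probes, marked spots kept, no fold threshold, the methods' t-test, all 18 arrays in 1 fit, the slide or the replicate number as a block (statmod 1.5.0), the series matrix values, and each array left out. Leaving out arrays in the other contrasts, and the list counts under each alternative, were added after seeing the data. Promoter windows came from RefSeq and were searched for letters on both strands.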

Additional observations from a re-analysis of the deposited data

Results flagged for a closer look

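The genes below were set apart because their response to 3.0 μg/cm2 differed between 72 h and 24 h by the interaction test (limma, adjusted p under 0.05). Each value is the log2 fold change at 72 h minus that at 24 h. All 72 h exposed arrays were scanned on another day and lay on other slides than the rest. Scan day, slide and the later exposure thus cannot be told apart.

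The response was lower at 72 h for genes of plasma proteins, coagulation and complement, with −1.40 for CFB, −1.11 for TF, −1.04 for FGA, −0.94 for HPX, −0.93 for CP, −0.58 for F7, −0.53 for FGG, −0.43 for FGB and −0.31 for FGL1. It was lower for genes of glycolysis, hypoxia and lipid handling, with −2.16 for ALDOC, −1.75 for HK2, −1.36 for CA9, −0.55 for EGLN3, −0.89 for PPARA, −1.03 for PTGDS, −1.01 for ALOX5 and −0.45 for PTGES. Xenobiotic and redox genes gave −1.04 for FMO5, −0.65 for EPHX1, −0.46 for ABCC3, −0.39 for SLC40A1 and −0.65 for SOD2. Epithelial surface genes and receptors gave −1.29 for MUC5B, −0.88 for USH1C, −0.73 for ELF3, −0.66 for CLDN4 and −0.62 for ERBB3. Stress, death and signalling genes gave −1.47 for HSPA6, −1.29 for BMF, −0.74 for TP53INP1, −0.71 for TNFSF10, −0.65 for CHAC1, −0.65 for BMP6, −0.57 for DDIT3, −0.56 for ZFP36, −0.44 for HRK and −0.27 for XBP1. Uptake, autophagy and matrix genes gave −0.65 for AP2A1, −0.56 for DNM2, −0.76 for GABARAPL1 and −1.20 for MMP1, and outside the lists C11orf96 gave −2.44 and GPR179, which was not modulated at 72 h, −2.60. For TF, HPX, C11orf96 and GPR179 a group had 1 array well above background, so that the size is uncertain.

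A higher response at 72 h was found for SNORA74A (1.72), MX1 (0.89), AREG (0.42), ISG15 (0.39) and HMOX1 (0.29). For 8 more genes at least 1 of the 4 groups had no array well above background, so that their values hold no size: 3.03 for FAM47C, 2.95 for SLC2A12, 2.82 for LOC100128593, 1.21 for PTX3, 1.17 for CCL5, 0.86 for CFI, −2.82 for UPK2 and −2.29 for SERPINA5.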

How the results depend on the processing

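Of 1296 probes modulated at 72 h (462 higher, 834 lower), normexp correction left 495 (142 and 353), and dropping the fold threshold gave 5902. The count was 976 to 1451 with the other alternatives that kept every array (1161 with the series matrix values) and 971 to 1454 with 1 array left out, where 910 to 1120 of the 1296 were called again and 0 in the opposite direction. The interaction count of 4654 became 2685 without the filter on dim probes and 2882 to 4481 with 1 array left out, the lowest without replicate 3 at 3.0 μg/cm2 and 24 h. Of 4654, 2420 were higher; with normexp correction 1849 of 4635 and with quantile normalization 2062 of 4537 were. The 1049 probes that differed between 6.0 and 3.0 μg/cm2 became 384 with normexp and 760 to 1196 with 1 array left out, and with quantile normalization 1037, of which 384 were higher, against 236 of 1049. Replicate numbers did not pair the 3.0 μg/cm2 cultures of 72 h with their controls (correlations of −0.033, 0.0039 and −0.099 between same-numbered arrays). Pairing was not examined in the other contrasts, and same-numbered control and 24 h arrays shared a slide. With the replicate number as a block the 3 counts were 1089, 3921 and 1144.

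With the series matrix values, which are raw median intensities, the sign turned for CPA4 (−0.21), LOC100128593 (−0.060), SLC2A12 (−0.14), INHBE (−0.000346), IFI44 (−0.24), MMP1 (−0.030), HSPA6 (−0.025), CCL20 (−0.10), ICAM1 (−0.19) and NOG (−0.15), and the calls of 12 more named genes were lost, CCL5, IL6, PTX3, MX1 and DDIT3 among them. HMOX1, not modulated, turned to −0.021 with quantile normalization, and F10, not modulated, to 0.085 with the slide as a block and to values from −0.67 to 0.42 with 1 array left out (0.019 without exposed replicate 2, 0.42 without exposed replicate 3, 0.12 without control replicate 3). Normexp correction ended 37 of the 96 calls of named genes, and the genes that fell among them were (ALB, F13B, SERPINA5, HPX, HNF4A, PPARA, CYP4F2, ALOX5, FN1, COL4A3, BMF, BMP6, EGR2, TMEM45B, SLC17A4, UPK2, CD14 and ZFP36). Leaving out 1 array ended at most 11 calls (without control replicate 2), SLC2A12, INHBE, IFI44, NOG, CD14, FOSB, UPK2, ALB, COL4A3 and TMEM45B being among those lost more than once. Of the values of named genes under the alternatives, 1618 kept their direction and side of the threshold, 118 lost the call, 9 gained it and 15 turned sign. Signal over background limits the dim probes. All 3 exposed arrays lay on slides that held no control and shared a scan day that no control had, whose part in the result was not tested.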
